A study of Mus musculus with 18 samples.

Results

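The 6 libraries described here are kidney RNA from mice labelled as Ecm1 knockouts, 3 taken at 2 weeks of age and 3 at 4 weeks, out of 18 libraries in the series. They were chosen by their genotype and age labels. The series also holds knockout kidneys at 1 week and wild-type kidneys at 1, 2 and 4 weeks, with 3 libraries in each of the 6 groups. Ecm1 encodes extracellular matrix protein 1, a secreted glycoprotein, and the series title places the gene in the matrix of the mesangium, the supporting tissue of the glomerulus. No other allele, agent or treatment is named for any group. The labels give neither strain nor sex, do not say how the knockout was made or in which cells it acts, and do not tell whether each library is a separate animal. The p-values below therefore rest on the spread between libraries, which was estimated over all 18 together and not from these 6 alone.

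In the mouse, nephrons go on forming for a short time after birth, and the tubules then lengthen and mature. Laboratory mice are usually weaned between the ages compared here, which replaces a milk diet rich in fat with one rich in carbohydrate. The proximal tubule reabsorbs most of the filtered solutes and is the main site of drug metabolism in the kidney, and in mice several of its enzymes and transporters depend on sex hormones. The glomerulus filters the blood through endothelium, a basement membrane and podocytes, and mesangial cells hold its capillary loops together.

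The labels were checked first. Ecm1 counts in the knockout libraries were 0, 0 and 1 at 2 weeks and 1, 1 and 2 at 4 weeks, where the wild-type libraries of those ages held 301 to 1315, so no age difference of Ecm1 is given. Kidney-defining transcripts were present in all 6 libraries. Umod, the urinary glycoprotein of the thick limb, was at 1471, 1879 and 1702 CPM at 2 weeks and 3665, 5017 and 3138 CPM at 4 weeks. Slc34a1, the sodium-phosphate cotransporter of the proximal tubule, was at 2133, 2759 and 1665 CPM at 2 weeks and 4858, 3999 and 4099 CPM at 4 weeks (CPM, counts brought to a common library size with the trimmed mean of M values, TMM).

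Some libraries stood apart from their group. The Y-linked gene Ddx3y was at 90.5, 47.8 and 47.3 CPM at 2 weeks and 60.02, 45.2 and 0.0693 CPM at 4 weeks, and Kdm5d, Eif2s3y and Uty followed it. Knockout 4-week library 3 was thus the only one of the 6 at or near 0 for these genes. Among the wild-type libraries at 2 and 4 weeks, 1 at 2 weeks was also at or near 0. All 3 knockout libraries at 1 week were also at or near 0 for them. Library 1 of the knockout 2-week group lay apart from its group on the second principal component, as did wild-type 2-week library 1. Knockout 2-week library 3 held brown fat transcripts: Ucp1 was at 0.0545, 0.0902 and 26.4 CPM at 2 weeks and 0, 2.78 and 0 CPM at 4 weeks. Knockout 4-week library 2 held the highest values of several injury and acute-phase genes, given with them below.

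The 6 libraries held 15363633 to 21234102 assigned counts, and 14774 of the 22063 genes in the table passed the filter on low counts and were tested. From 2 to 4 weeks, 5447 genes were called changed at an adjusted p under 0.05 by edgeR's quasi-likelihood test with Benjamini-Hochberg adjustment, which is 36.9% of those tested. Of these, 2690 rose (18.2%) and 2757 fell (18.7%), and at least 2-fold changes were called for 769 rising genes (5.21%) and 1184 falling genes (8.01%). In 6402 genes (43.3%) the values of the 3 libraries at 2 weeks did not overlap those of the 3 at 4 weeks. Most genes named below were picked by a small p or by non-overlap itself, so their lack of overlap adds no support to their calls. The median log2 fold change over all genes tested was -0.02. The split between rises and falls depended on scaling: with library totals alone, 1054 genes rose and 6569 fell, and the median log2 fold change moved by -0.38, to -0.40. The 50 most abundant genes took 20.4% to 24.9% of counts at 2 weeks and 31.1% to 33.2% at 4 weeks, and changes are given relative to the TMM scale unless stated.

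Genes of growth and cell division were lower at 4 weeks. Of 30 genes of the cell cycle and DNA replication, 24 fell and none rose, with a median log2 fold change of -1.35 against -0.02 over all genes. The share called as falling over all genes tested was 18.7%. Ccnb2, a cyclin of mitotic entry, was at 17.5, 18.6 and 24.3 CPM at 2 weeks and 6.62, 6.29 and 2.77 CPM at 4 weeks (log2 fold change -1.95 ± 0.27 (SE), adjusted p = 5.35e-05). The 3 later libraries lay below the 3 earlier ones, with library 3 lowest. Mcm6 and Mcm3, subunits of the replicative helicase, stood at 76.4, 80.4 and 88.2 CPM at 2 weeks and 44.2, 29.3 and 30.8 CPM at 4 weeks and at 23.3, 25.7 and 33.999 CPM at 2 weeks and 11.2, 9.63 and 6.65 CPM at 4 weeks, with log2 fold changes of -1.23 ± 0.15 and -1.59 ± 0.24 (SE). Bub1b, a kinase of the spindle checkpoint, was at 12.7, 16.02 and 22.6 CPM at 2 weeks and 5.58, 6.44 and 3.26 CPM at 4 weeks (log2 fold change -1.75 ± 0.28 (SE), adjusted p = 0.000179). In none of these 4 genes, which were picked by p, did the ages overlap, and over all genes tested 43.3% did not. The 1-week knockout level of Ccnb2 was 25.7, 24.7 and 26.96 CPM.

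Promoters of cell-cycle genes carry short elements by which their transcription is coupled to the division cycle, among them the CCAAT box, read by the factor NF-Y, and the cell cycle homology region, TTTGAA in its common form. Below are the 250 bases before the RefSeq transcription start of the 4 members named above, on build GRCm38.p6, to show these letters in genes that fell. Capitals mark CCAAT or TTTGAA on either strand, and the reverse complements are ATTGG and TTCAAA. Ccnb2 lies at chr9:70421555-70421804 on the minus strand, Bub1b at chr2:118597961-118598210 on the plus strand, Mcm3 at chr1:20820313-20820562 on the minus strand and Mcm6 at chr1:128359706-128359955 on the minus strand.
Ccnb2: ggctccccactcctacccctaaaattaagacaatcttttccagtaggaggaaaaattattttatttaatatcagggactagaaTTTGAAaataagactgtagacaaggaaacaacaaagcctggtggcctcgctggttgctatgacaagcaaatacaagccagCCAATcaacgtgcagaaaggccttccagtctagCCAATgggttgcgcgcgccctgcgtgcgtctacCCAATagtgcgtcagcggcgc
Bub1b: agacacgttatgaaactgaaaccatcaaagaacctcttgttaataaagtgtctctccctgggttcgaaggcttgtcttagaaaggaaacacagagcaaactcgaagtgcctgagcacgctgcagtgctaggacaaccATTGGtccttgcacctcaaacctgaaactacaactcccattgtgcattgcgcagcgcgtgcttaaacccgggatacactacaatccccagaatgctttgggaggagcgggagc
Mcm3: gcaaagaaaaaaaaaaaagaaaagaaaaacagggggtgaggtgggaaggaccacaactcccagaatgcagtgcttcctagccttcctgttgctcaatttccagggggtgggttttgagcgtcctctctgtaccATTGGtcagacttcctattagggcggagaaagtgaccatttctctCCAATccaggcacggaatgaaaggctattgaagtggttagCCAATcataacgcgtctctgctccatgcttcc
Mcm6: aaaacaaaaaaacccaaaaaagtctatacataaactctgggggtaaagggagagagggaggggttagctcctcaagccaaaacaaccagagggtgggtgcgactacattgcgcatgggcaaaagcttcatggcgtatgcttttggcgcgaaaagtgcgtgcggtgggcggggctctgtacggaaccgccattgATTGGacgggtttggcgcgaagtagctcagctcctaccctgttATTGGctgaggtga
The marked matches numbered 4 in Ccnb2, 1 in Bub1b, 3 in Mcm3 and 2 in Mcm6. RefSeq promoters were found for 21 of the 24 members that fell, as 22 windows. CCAAT was present on either strand in 21 of the 22 (95.5%), against 33.8% of all 32851 promoter windows of this length. TTTGAA was present in 9 of the 22 (40.9%), against 16% of all windows. Among the 5 windows of the 6 members that were not called, 3 held CCAAT and 0 held TTTGAA. The matches describe these windows and do not show that a factor was bound.

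Imprinted genes that regulate fetal growth were also lower. Of 14 tested, 11 fell and 1 rose, with a median of -1.32. Mest, a gene expressed from the paternal copy in growing tissue, was at 26.7, 29.96 and 27.9 CPM at 2 weeks and 4.13, 7.56 and 6.03 CPM at 4 weeks (log2 fold change -2.26 ± 0.21 (SE), adjusted p = 1.9e-06). Igf2, the fetal insulin-like growth factor, was at 7.96, 6.95 and 9.99 CPM at 2 weeks and 1.24, 1.75 and 2.56 CPM at 4 weeks (log2 fold change -2.16 ± 0.30 (SE), adjusted p = 6.54e-05). Each age formed its own range in both genes, and Mest had been at 129, 171 and 134 CPM in knockout kidneys at 1 week. The member that rose was Igf2r, the receptor that carries IGF2 to the lysosome, at 74.9, 109 and 100.2 CPM at 2 weeks and 217, 212 and 207 CPM at 4 weeks (log2 fold change 1.16 ± 0.15 (SE), adjusted p = 3.52e-05).

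In the growth hormone and IGF axis, 4 of 15 genes rose and 2 fell, where 18.2% of all genes tested rose and 18.7% fell. Ghr, the growth hormone receptor, was at 160.4, 118 and 109.9 CPM at 2 weeks and 734, 549 and 257 CPM at 4 weeks (log2 fold change 1.99 ± 0.27 (SE), adjusted p = 4.35e-05), with 4-week library 3 the lowest of its age but above all 2-week libraries. Igf1, whose product acts locally as well as in the circulation, was at 74.3, 85.4 and 109 CPM at 2 weeks and 18.7, 12.6 and 23.6 CPM at 4 weeks (log2 fold change -2.29 ± 0.22 (SE), adjusted p = 2.31e-06). The list's median was 0.14 on the TMM scale and -0.23 with library totals, where 2 rose and 3 fell, so it has no direction that holds under both. Leaving out 2-week library 2 or 3 or 4-week library 1 left 1 fall in place of 2.

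Nephron progenitor and developing tubule genes gave 10 falls and 2 rises among 18, with a median of -0.70, and 12 falls and no rise with library totals. Sox4, a transcription factor of progenitors, was at 66.9, 83.7 and 123 CPM at 2 weeks and 25.4, 29.4 and 21.3 CPM at 4 weeks (log2 fold change -1.85 ± 0.24 (SE), adjusted p = 2.86e-05). Sox11, its relative, was low at both ages, at 1.20, 1.13 and 1.28 CPM at 2 weeks and 0.551, 0.398 and 0.416 CPM at 4 weeks (log2 fold change -1.38 ± 0.39, SE). Lhx1, a factor of early nephron patterning, rose, at 16.1, 20.1 and 16.2 CPM at 2 weeks and 28.4, 24.3 and 36.7 CPM at 4 weeks (log2 fold change 0.77 ± 0.15 (SE), adjusted p = 0.000952). The other rise was Crym, a thyroid hormone binding protein, with a log2 fold change of 0.83, named after its values were seen.

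Matrix genes formed the other large group that was lower at 4 weeks. Of 30 fibrillar and interstitial matrix genes, 22 fell and none rose, with a median of -1.27. Mfap2, a microfibril protein, was at 23.2, 17.5 and 23.96 CPM at 2 weeks and 1.998, 3.26 and 2.77 CPM at 4 weeks (log2 fold change -3.01 ± 0.23 (SE), adjusted p = 4.95e-07), with all later values below all earlier ones. Col15a1, a collagen found next to basement membranes, was at 199, 225 and 285 CPM at 2 weeks and 28.5, 44.5 and 50.6 CPM at 4 weeks (log2 fold change -2.52 ± 0.23 (SE), adjusted p = 1.72e-06). Eln, the elastin precursor, was at 145, 155 and 134 CPM at 2 weeks and 51.7, 68.6 and 75.5 CPM at 4 weeks (log2 fold change -1.15 ± 0.15 (SE), adjusted p = 3.7e-05). Among matrix proteases and inhibitors, 16 of 28 fell and 2 rose, with a median of -0.70. Mmp2, a gelatinase, was at 90.9, 81.7 and 110.4 CPM at 2 weeks and 6.27, 19.3 and 10.3 CPM at 4 weeks (log2 fold change -2.99 ± 0.28 (SE), adjusted p = 2.42e-06). Its activator at the cell surface, Mmp14, was at 82.6, 58.5 and 70.4 CPM at 2 weeks and 14.1, 27.4 and 26.1 CPM at 4 weeks (log2 fold change -1.65 ± 0.21 (SE), adjusted p = 2.8e-05). The lowest 4-week values of Mmp2, Mmp14 and Mfap2 were all in library 1. The 2 rises were Timp3, a protease inhibitor held in the matrix, at 0.67 and Plat, a plasminogen activator, at 0.53 (log2). Without 4-week library 1 the rises numbered 4, and with library totals none was left.

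Basement membrane genes gave 25 falls and 1 rise among 30, with a median of -1.21. Hspg2, the heparan sulphate proteoglycan perlecan, was at 533, 422 and 478 CPM at 2 weeks and 152, 170.4 and 165 CPM at 4 weeks (log2 fold change -1.55 ± 0.10 (SE), adjusted p = 1.53e-07). Npnt, a ligand of integrin alpha 8 beta 1 in kidney development, was at 1323, 1143 and 1206 CPM at 2 weeks and 297, 347 and 345 CPM at 4 weeks (log2 fold change -1.89 ± 0.12 (SE), adjusted p = 8.37e-08). For Hspg2 and Npnt, the 3 values within an age were close and the ages were far apart, and at 1 week Npnt had been at 1310.3, 1153 and 1240.2 CPM. Col4a4, a chain of the mature glomerular membrane, was at 546, 657 and 645 CPM at 2 weeks and 495, 479 and 377 CPM at 4 weeks (log2 fold change -0.45 ± 0.16 (SE), adjusted p = 0.0372). That call was lost without 2-week library 2 or 3 or 4-week library 3. Lama3, a laminin chain named after its values were seen, was the member that rose, at 11.5, 23.5 and 12.97 CPM at 2 weeks and 64.8, 88.8 and 27.3 CPM at 4 weeks (log2 fold change 1.91 ± 0.32 (SE), adjusted p = 0.000311).

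Ranked by fold, and keeping genes that passed the test, averaged 5 CPM or more at the higher age and did not overlap between ages, the 12 steepest falls were Gpr165, Adamts17, Fat3, Kcnd2, Nrep, Lrrtm1, Alx1, Nav3, Dnah9, Postn, Cldn6 and Kirrel3. Nrep, a neuronal regeneration related protein, was at 871, 445 and 669.7 CPM at 2 weeks and 18.5, 15.3 and 20.4 CPM at 4 weeks (log2 fold change -5.19 ± 0.28 (SE), adjusted p = 4.19e-08). Postn, the matricellular protein periostin, was at 114, 117 and 137 CPM at 2 weeks and 4.82, 12.7 and 7.90 CPM at 4 weeks (log2 fold change -3.86 ± 0.30 (SE), adjusted p = 4.95e-07). Gpr165 was at 4.53, 4.20 and 12.6 CPM at 2 weeks and 0.138, 0 and 0 CPM at 4 weeks, and the ratio of pooled counts was a 149-fold fall with a 95% counting interval of 41.1 to 1240, since 2 counts remained at 4 weeks. Nrep had been at 1119.8, 779 and 968 CPM at 1 week.

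**Figure D1:**
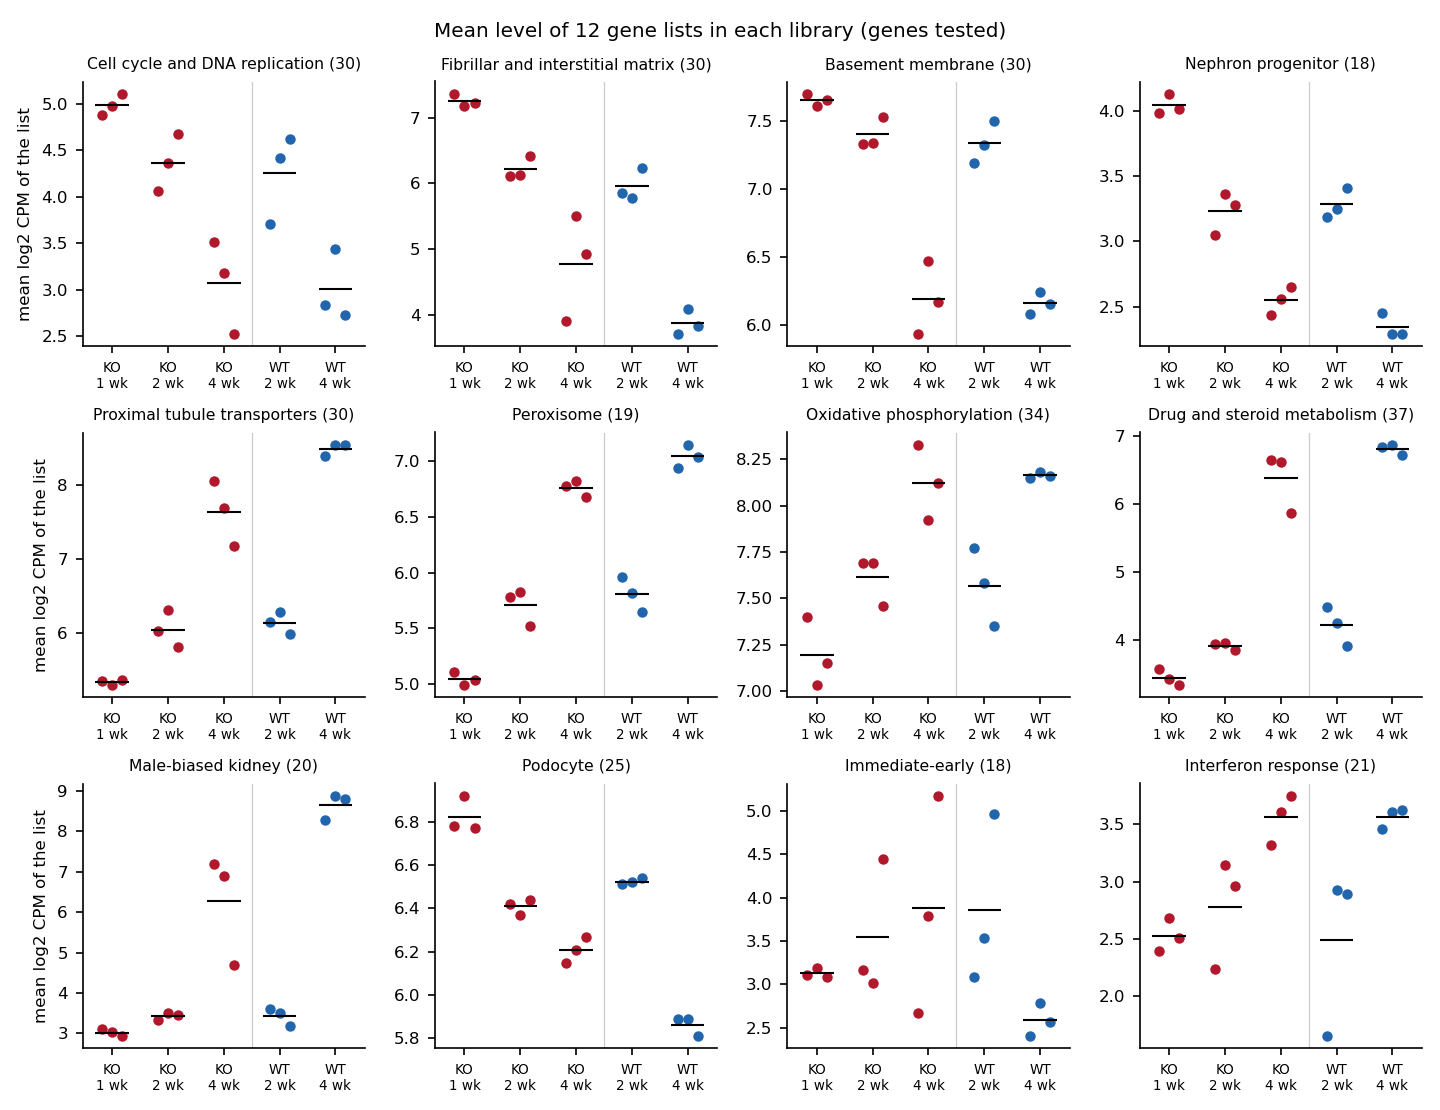
Mean log2 CPM of the genes of 12 lists in each of 15 libraries: knockout at 1, 2 and 4 weeks in red and wild type at 2 and 4 weeks in blue, with a black bar at the mean of 3 libraries. The cell cycle list lies lower in all 3 knockout 4-week libraries (3.51, 3.18 and 2.52) than in the 2-week ones (4.06, 4.36 and 4.67).

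Most genes of the working proximal tubule rose. Among 30 proximal tubule transporters, 26 rose and none fell, with a median log2 fold change of 1.34; over all genes tested, 18.2% rose. Slc22a12, the urate transporter URAT1, was at 174, 228 and 209 CPM at 2 weeks and 1231, 835 and 723 CPM at 4 weeks (log2 fold change 2.19 ± 0.21 (SE), adjusted p = 2.65e-06). Slc22a6, the organic anion transporter OAT1, was at 91.4, 184 and 137 CPM at 2 weeks and 801, 710.3 and 443 CPM at 4 weeks (log2 fold change 2.25 ± 0.29 (SE), adjusted p = 2.76e-05). Slc17a1, a sodium-dependent phosphate and urate transporter, was at 248, 213 and 189 CPM at 2 weeks and 683, 651 and 532 CPM at 4 weeks (log2 fold change 1.52 ± 0.16 (SE), adjusted p = 5.26e-06). All 3 were lowest in library 3 among the 4-week libraries, and none overlapped between ages. Since these are whole kidneys, more proximal tubule cells and more transcript per cell cannot be told apart, and the same holds for every group of cell type genes here.

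Slco1a1, an organic anion transporter, had no count in the 2-week libraries and stood at 8.48, 5.89 and 0.762 CPM at 4 weeks. Taken against a floor of 3 counts over the 2-week group, it was at least 103-fold higher.

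Amino acid uptake and breakdown gave 23 rises and no fall among 28 genes, with a median of 1.05, and 16 rises and 3 falls with library totals. Haao, an enzyme of tryptophan breakdown towards quinolinate, was at 8.40, 18.5 and 8.90 CPM at 2 weeks and 126, 95.2 and 50.9 CPM at 4 weeks (log2 fold change 2.92 ± 0.35 (SE), adjusted p = 1.47e-05). Hgd, an enzyme of tyrosine breakdown, was at 191, 224 and 148 CPM at 2 weeks and 484, 482 and 444 CPM at 4 weeks (log2 fold change 1.32 ± 0.17 (SE), adjusted p = 3.55e-05). Neither gene overlapped between ages, and Hgd varied less within an age than Haao. Kynu, the kynureninase of the same tryptophan route, was at 17.1, 19.6 and 19.6 CPM at 2 weeks and 34.7, 44.6 and 56.9 CPM at 4 weeks (log2 fold change 1.27 ± 0.40 (SE), adjusted p = 0.0209), a call lost without 2-week library 1 or 3 or 4-week library 3.

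Drug and steroid metabolism had 31 of 37 genes higher and none lower, with a median of 1.59. Cyp2a5, a cytochrome P450 of coumarin and nicotine metabolism, was at 1.53, 0.677 and 0.710 CPM at 2 weeks and 89.3, 124 and 53.4 CPM at 4 weeks (log2 fold change 6.54 ± 0.39 (SE), adjusted p = 8.37e-08). Akr1c21, an aldo-keto reductase acting on steroids, was at 8.18, 11.1 and 21.6 CPM at 2 weeks and 1541, 855 and 266 CPM at 4 weeks (log2 fold change 6.02 ± 0.59 (SE), adjusted p = 3.11e-06). Gstm1, a glutathione transferase, was at 184, 163 and 203 CPM at 2 weeks and 559.8, 569 and 456 CPM at 4 weeks (log2 fold change 1.53 ± 0.14 (SE), adjusted p = 2.4e-06). The range within 4 weeks was wide for Akr1c21, from library 1 to library 3, and narrow for Gstm1. Cyp2a5 and its near copy Cyp2a4 share much of their sequence, as do the genes of the Ugt1a and Gsta families, so the split of reads among such copies is uncertain.

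Peroxisomal genes gave 14 rises and no fall among 19, with a median of 1.02. Ephx2, the soluble epoxide hydrolase, was at 50.2, 68.2 and 56.3 CPM at 2 weeks and 362, 307 and 203 CPM at 4 weeks (log2 fold change 2.32 ± 0.21 (SE), adjusted p = 1.71e-06). Cat, the catalase that breaks down hydrogen peroxide, was at 642, 645 and 529 CPM at 2 weeks and 1487, 1292 and 1201 CPM at 4 weeks (log2 fold change 1.13 ± 0.13 (SE), adjusted p = 8.39e-06). Acox3, an oxidase of branched-chain fatty acids, was at 75.9, 79.9 and 54.1 CPM at 2 weeks and 319, 359 and 143 CPM at 4 weeks (log2 fold change 1.97 ± 0.26 (SE), adjusted p = 4.15e-05). Each was lowest in library 3 at 4 weeks, yet above every 2-week value.

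Mitochondrial genes moved the same way. Of 34 nuclear genes of oxidative phosphorylation, 26 rose and none fell, with a median of 0.52; with library totals alone 5 rose. Ndufv1, a subunit of complex I, was at 163, 166 and 151 CPM at 2 weeks and 261, 235 and 230.2 CPM at 4 weeks (log2 fold change 0.60 ± 0.09 (SE), adjusted p = 0.000154). Of the 13 protein genes of the mitochondrial genome, 12 rose, with a median of 0.97, and 7 did so without 4-week library 1. mt-Co3, a subunit of cytochrome oxidase, was at 14127, 13795 and 11082 CPM at 2 weeks and 30711, 24806 and 23784 CPM at 4 weeks (log2 fold change 1.02 ± 0.15 (SE), adjusted p = 9.03e-05). The mitochondrial genome took 11.8% to 14.2% of the counts at 2 weeks and 18.4% to 21.7% at 4 weeks. The oxidative stress response gave 17 rises and 1 fall among 21, with a median of 0.74, and 11 rises and 2 falls with library totals. Srxn1, the sulfiredoxin that repairs oxidised peroxiredoxins, was at 27.8, 31.99 and 23.9 CPM at 2 weeks and 73.6, 68.8 and 67.6 CPM at 4 weeks (log2 fold change 1.33 ± 0.10 (SE), adjusted p = 4.95e-07). Slc7a11, a cystine transporter named after its values were seen, was the one that fell, from 1.04, 0.677 and 1.80 CPM to 0.0689, 0.0796 and 0 CPM (adjusted p = 0.00223). With 2 counts left at 4 weeks, its pooled ratio was a 24.3-fold fall with a 95% counting interval of 6.47 to 204.

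The 12 steepest rises by the same rule were Nat8f6, Nat8f7, Mup7, Serpina3k, Nat8f5, Akr1c18, Mup3, Mup14, Slco1a1, Mup22, Cyp2d9 and Nat8. Nat8 and its relatives encode acetyltransferases of the endoplasmic reticulum, and Nat8 itself was at 0.382, 0.180 and 0.142 CPM at 2 weeks and 93.4, 81.9 and 3.53 CPM at 4 weeks (log2 fold change 7.99 ± 1.00 (SE), adjusted p = 2.44e-05). Nat8f6 had no count at 2 weeks, stood at 120.3, 84.3 and 8.80 CPM at 4 weeks and was at least 1450-fold higher. Cyp2d9, a male-biased steroid hydroxylase, was at 0.218, 0.180 and 0.189 CPM at 2 weeks and 113, 148 and 5.68 CPM at 4 weeks (log2 fold change 8.78 ± 1.10 (SE), adjusted p = 2.36e-05). Library 3 held by far the lowest 4-week values of all 3.

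The major urinary protein genes, which carry pheromones, and Serpina3k, a serine protease inhibitor made mainly in the liver, had another order among libraries. Mup3 stood at 2.07, 10.98 and 8.38 CPM and Serpina3k at 3.58, 16.6 and 11.2 CPM at 4 weeks, lowest in library 1 and highest in library 2, with no count at 2 weeks. They were at least 143-fold and 209-fold higher. The liver marker Alb, given below, had the same order of libraries at 4 weeks. So did the mean log2 CPM of the liver gene list, at 3.82, 4.87 and 4.08. The part of liver tissue in these rises was not tested. Reads of the Mup genes and of the Nat8 relatives may be split among near-identical copies. By FPKM (fragments per kilobase of transcript, scaled to depth), which allows levels of genes to be compared, the highest values at 4 weeks outside the mitochondrial genome included those of Gpx3, Kap, Fth1 and Spp1. Gpx3, the secreted glutathione peroxidase of the proximal tubule, was at 8082 ± 2494 FPKM at 2 weeks and 14848 ± 1242 FPKM at 4 weeks (SD, n = 3).

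**Figure D2:**
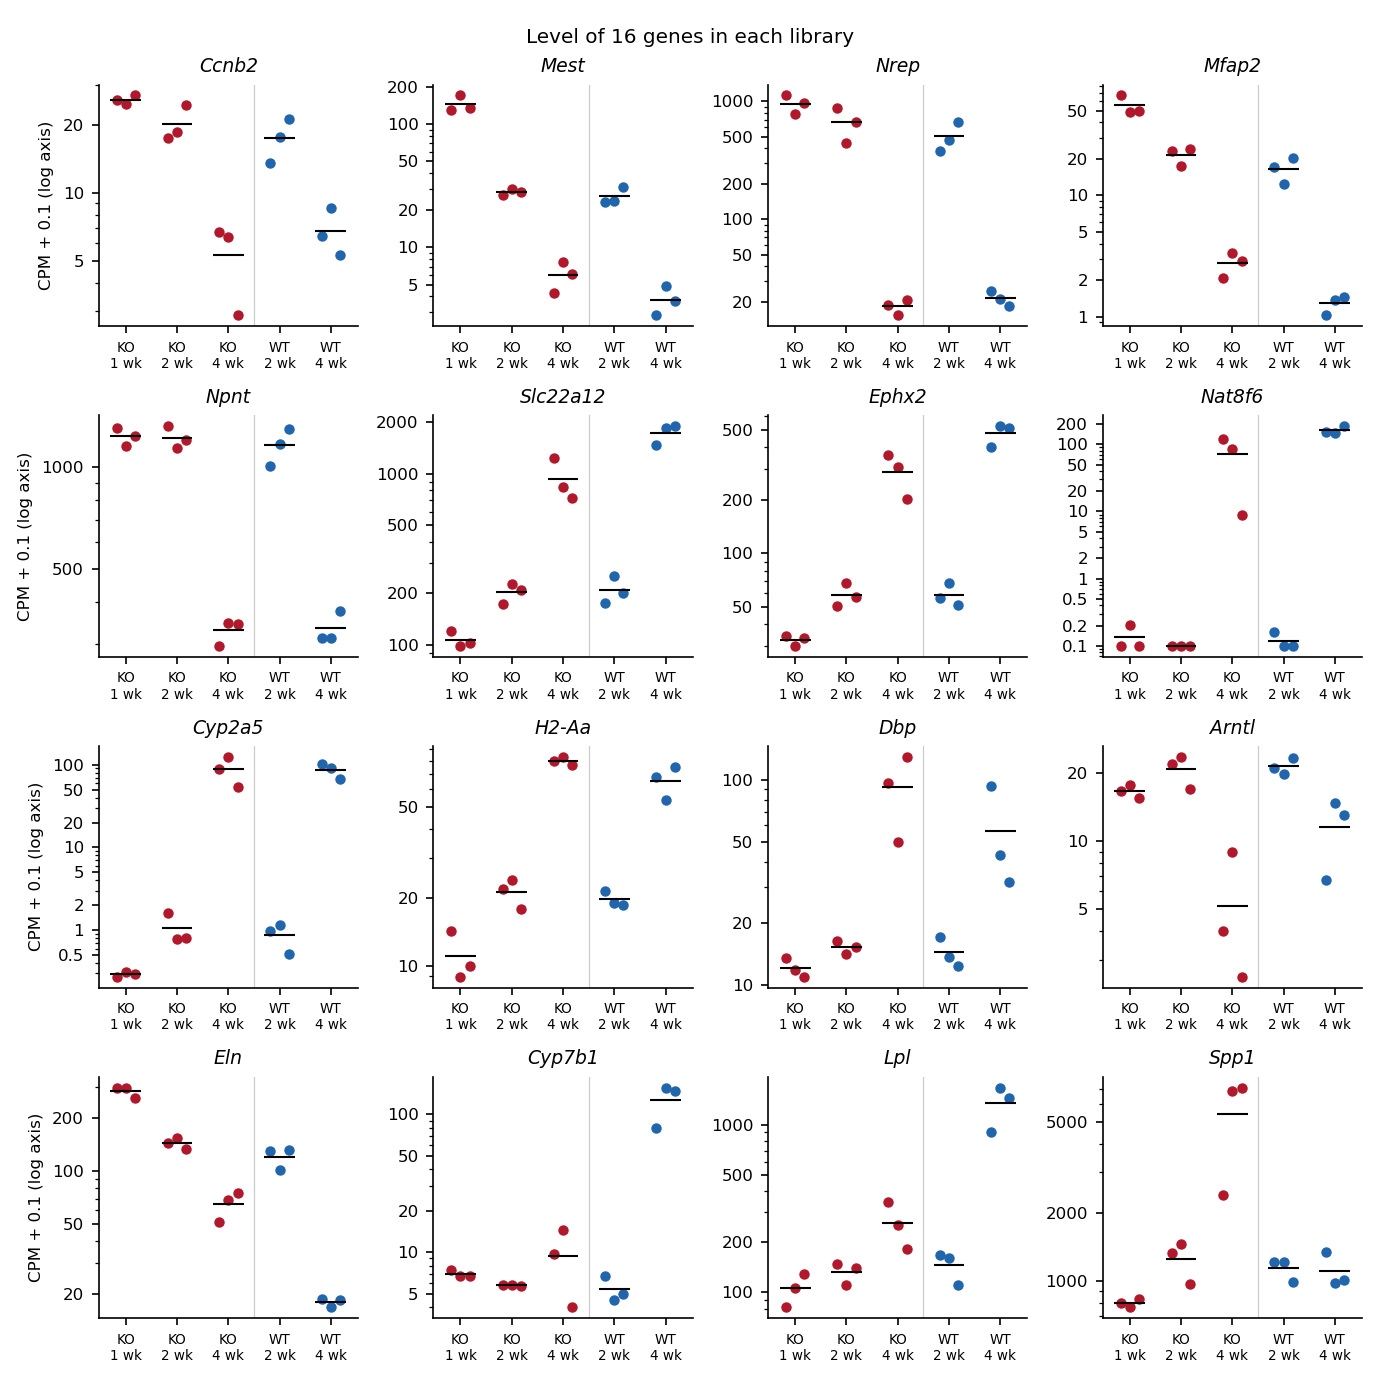
CPM + 0.1 on a log axis for 16 genes in knockout libraries at 1, 2 and 4 weeks (red) and wild-type libraries at 2 and 4 weeks (blue), 1 point per library. Nat8f6 lies at 0 CPM in all 3 knockout 2-week libraries, and in the 4-week ones library 3 lies well under the others.

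Genes of fuel use changed in several directions. Fatty acid oxidation and ketone body genes gave 19 rises and 1 fall among 30, with a median of 0.59. With library totals 10 rose and 2 fell, with a median of 0.22. Bdh1, the mitochondrial enzyme that interconverts the main ketone bodies, was at 46.5, 73.6 and 79.9 CPM at 2 weeks and 202, 173 and 111 CPM at 4 weeks (log2 fold change 1.28 ± 0.21 (SE), adjusted p = 0.00024), and every 4-week value lay above every 2-week value.

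Gluconeogenesis and fructose breakdown had 10 of 16 genes higher and none lower, with a median of 0.80. Slc2a5, the fructose transporter GLUT5, was at 61.1, 46.9 and 39.6 CPM at 2 weeks and 157, 128 and 204 CPM at 4 weeks (log2 fold change 1.73 ± 0.21 (SE), adjusted p = 1.78e-05). Khk, the fructokinase, was at 218, 199.7 and 148 CPM at 2 weeks and 413, 286 and 422 CPM at 4 weeks (log2 fold change 0.99 ± 0.20 (SE), adjusted p = 0.00102). Both ages were apart in each gene, and the lowest 4-week value was in library 2.

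Cholesterol and fatty acid synthesis gave 12 rises and 3 falls among 25. Its median was 0.33 on the TMM scale and -0.05 with library totals, where 6 rose and 4 fell. Scd1, the desaturase that makes monounsaturated fatty acids, was named after its values were seen and was at 11.1, 19.04 and 52.3 CPM at 2 weeks and 495, 1047 and 154 CPM at 4 weeks (log2 fold change 4.36 ± 0.79 (SE), adjusted p = 0.000493). Insig1, a sterol sensor of the endoplasmic reticulum, was at 19.9, 16.3 and 24.1 CPM at 2 weeks and 57.1, 37.7 and 50.03 CPM at 4 weeks (log2 fold change 1.26 ± 0.18 (SE), adjusted p = 6.35e-05). Glycolysis had 8 rises and 2 falls among 18, where 18.2% of all genes tested rose and 18.7% fell. Its median of 0.26 became -0.13 with library totals, where 3 rose and 4 fell. The falls were Slc16a1, a lactate transporter, and Slc2a1, the glucose transporter GLUT1. Leaving out any 1 of the 6 libraries left 0 or 1 of them.

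Endocytic receptors and protein uptake, by which the proximal tubule recovers filtered protein, gave 7 rises and 1 fall among 14, with a median of 0.43. Over all genes tested, 18.2% rose and 18.7% fell. With library totals the median was 0.06, 5 rose and 3 fell, so the list has no direction that holds under both scalings. Cubn, the receptor cubilin, was at 552, 434 and 375 CPM at 2 weeks and 920.4, 817 and 1084 CPM at 4 weeks (log2 fold change 1.05 ± 0.15 (SE), adjusted p = 5.54e-05), and no value overlapped between ages. Beyond the proximal tubule the picture was mixed. Of 23 genes of the thin limb, thick limb and distal convoluted tubule, 8 rose and 5 fell, near or above the shares over all genes. The median of 0.25 became -0.12 with library totals, where 3 rose and 7 fell. The rises numbered 3 to 5 without 2-week library 1 or 3 or 4-week library 1 or 3, and the falls 2 or 3 without 2-week library 2 or 3 or 4-week library 2. Egf, the growth factor made by the distal tubule, was at 679, 1521 and 685 CPM at 2 weeks and 2439.8, 3279 and 2985 CPM at 4 weeks (log2 fold change 1.59 ± 0.27 (SE), adjusted p = 0.000317). Umod rose as well, with the values given above (log2 fold change 1.23 ± 0.20 (SE), adjusted p = 0.000218). Cldn16, a claudin of magnesium transport in the thick limb, was at 16.5, 17.6 and 14.8 CPM at 2 weeks and 11.6, 11.9 and 10.7 CPM at 4 weeks (log2 fold change -0.52 ± 0.13 (SE), adjusted p = 0.00685).

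Collecting duct genes gave 2 rises and 3 falls among 23, with a median of -0.11, where 18.2% of all genes tested rose and 18.7% fell. With library totals none rose and 9 fell, with a median of -0.48. Scnn1g, a subunit of the epithelial sodium channel, fell, at 106, 80.3 and 82.96 CPM at 2 weeks and 62.02, 61.6 and 66.2 CPM at 4 weeks (log2 fold change -0.50 ± 0.15 (SE), adjusted p = 0.0128), though not without 2-week library 1. Slc26a4, the anion exchanger pendrin, rose, at 67.6, 35.1 and 38.97 CPM at 2 weeks and 61.9, 73.99 and 84.9 CPM at 4 weeks (log2 fold change 0.64 ± 0.21 (SE), adjusted p = 0.0227). Its ages overlapped, since 2-week library 1 exceeded one later library, and no rise was left in the list without 2-week library 3 or without 4-week library 3.

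Calcium, phosphate and vitamin D handling had 8 of 18 genes higher and none lower, with a median of 0.48. Over all genes tested, 18.2% rose and 18.7% fell. Only 3 rose without 4-week library 1, and with library totals 4 rose and 4 fell. Slc34a1, the main renal phosphate transporter, rose with no overlap between the values given above (log2 fold change 0.98 ± 0.17 (SE), adjusted p = 0.000403). Vdr, the vitamin D receptor, was at 155, 139 and 138 CPM at 2 weeks and 287, 198 and 227 CPM at 4 weeks (log2 fold change 0.72 ± 0.12 (SE), adjusted p = 0.000357). Cyp24a1, the enzyme that inactivates vitamin D, was at 14.9, 20.2 and 29.2 CPM at 2 weeks and 299.8, 62.7 and 23.2 CPM at 4 weeks (log2 fold change 2.58 ± 0.62 (SE), adjusted p = 0.00389). Its ages overlapped, and without 4-week library 1 its log2 fold change was 1.00 and no longer called.

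**Figure D3:**
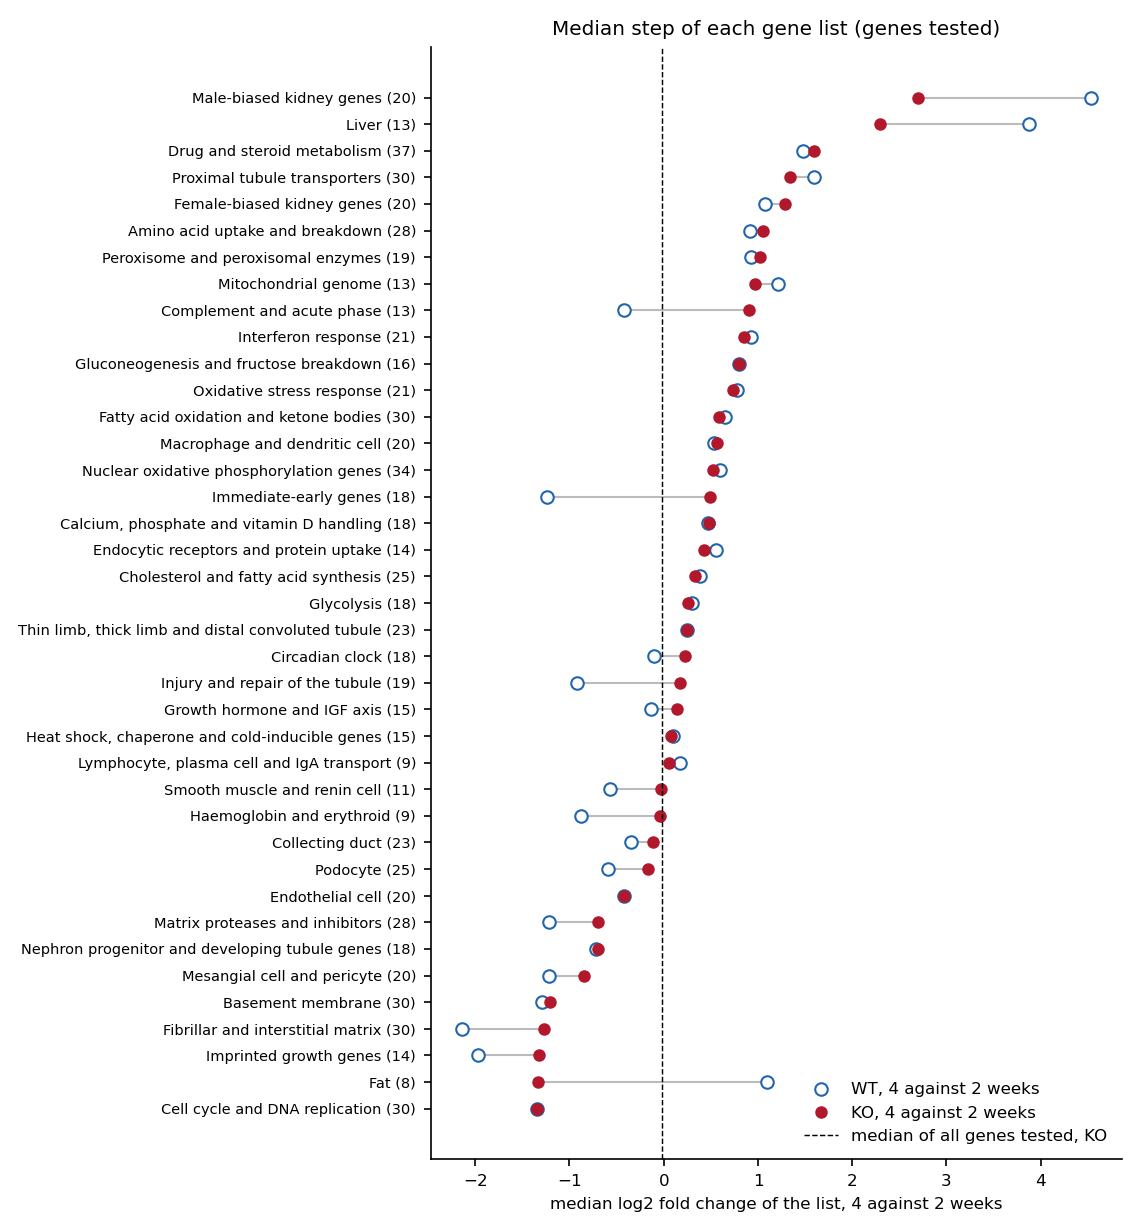
Median log2 fold change from 2 to 4 weeks for 39 lists with at least 8 genes tested, knockout as filled red points and wild type as open blue points. The dashed line marks the knockout median of all genes tested, -0.02; the knockout medians run from -1.35 for the cell cycle to 2.70 for male-biased genes.

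In the glomerulus, podocyte genes went both ways: of 25, 7 rose and 6 fell, with a median of -0.17, where 18.2% of all genes tested rose and 18.7% fell. Nphs1, the slit diaphragm protein nephrin, rose, at 51.4, 43.1 and 36.1 CPM at 2 weeks and 67.4, 72.5 and 67.9 CPM at 4 weeks (log2 fold change 0.67 ± 0.17 (SE), adjusted p = 0.00512). It was named after its values were seen, and all its later values lay above the earlier ones. Clic3, Magi2, Synpo, Ptpro and Sema3g rose too. Ptpro, a receptor phosphatase of the podocyte, was at 42.8, 45.1 and 46.1 CPM at 2 weeks and 51.5, 57.05 and 64.7 CPM at 4 weeks (log2 fold change 0.37 ± 0.13 (SE), adjusted p = 0.0394), a call kept in 1 of 6 fits that each left out a knockout library. Without 2-week library 3 the list's rises numbered 3 and without 4-week library 3 they numbered 4, and with library totals 2 rose and 15 fell. Cdkn1c, a cell cycle inhibitor of the mature podocyte, was at 80.6, 98.4 and 226 CPM at 2 weeks and 20.5, 39.9 and 27.1 CPM at 4 weeks (log2 fold change -2.21 ± 0.33 (SE), adjusted p = 0.000103), and its highest value was in 2-week library 3.

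Mesangial cell and pericyte genes gave 12 falls and no rise among 20, with a median of -0.85. Itga8, the integrin chain that marks mesangial cells and binds nephronectin, was at 89.1, 80.2 and 90.3 CPM at 2 weeks and 15.6, 25.1 and 32.3 CPM at 4 weeks (log2 fold change -1.83 ± 0.18 (SE), adjusted p = 3.65e-06). Ptn, the growth factor pleiotrophin, was at 12.2, 11.1 and 15.4 CPM at 2 weeks and 4.07, 4.61 and 4.64 CPM at 4 weeks (log2 fold change -1.54 ± 0.21 (SE), adjusted p = 4.45e-05). Neither gene overlapped between ages, and Ptn had been at 82.5, 85.5 and 56.998 CPM at 1 week. The summed level of the mesangial list ran from 1280 to 2040 CPM at 2 weeks and from 966 to 1220 CPM at 4 weeks.

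Endothelial genes had 9 falls and 2 rises among 20, with a median of -0.42, where 18.7% of all genes tested fell. With library totals 14 fell and none rose, with a median of -0.79. Cdh5, the cadherin of endothelial junctions, was at 109.8, 135 and 117 CPM at 2 weeks and 64.4, 68.9 and 64.7 CPM at 4 weeks (log2 fold change -0.87 ± 0.10 (SE), adjusted p = 9.33e-06). The rises, Plat and Flt1, numbered 1 without 2-week library 3 or without 4-week library 2. Of 11 smooth muscle and renin cell genes, 1 rose and 2 fell, where 18.2% of all genes tested rose and 18.7% fell. Their median of -0.03 became -0.45 with library totals. The rises numbered 0 without 2-week library 1 or 2 or 4-week library 2. The falls numbered 1 without 2-week library 3 or 4-week library 1 or 3. Ren1, which encodes renin, was not called, at 66.1, 119 and 103 CPM at 2 weeks and 91.2, 239 and 201 CPM at 4 weeks (log2 fold change 0.88 ± 0.37 (SE), adjusted p = 0.0757).

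Of 18 clock genes, 7 rose and 4 fell, where 18.2% of all genes tested rose and 18.7% fell. Their median of 0.23 became -0.14 with library totals. Dbp, an output gene of the clock, was at 16.3, 14.1 and 15.3 CPM at 2 weeks and 96.4, 49.8 and 129 CPM at 4 weeks (log2 fold change 2.59 ± 0.35 (SE), adjusted p = 4.16e-05). Arntl, which encodes the activator BMAL1, was at 21.9, 23.4 and 16.9 CPM at 2 weeks and 3.93, 8.83 and 2.43 CPM at 4 weeks (log2 fold change -2.05 ± 0.34 (SE), adjusted p = 0.000252). In both genes the values at 2 weeks were close together and those at 4 weeks spread, in opposite order across libraries. The labels give no hour of collection, and its part in these values was not tested. The cold-inducible RNA-binding protein gene Cirbp was at 98.96, 17.1 and 18.7 CPM at 2 weeks and 11.6, 11.5 and 8.87 CPM at 4 weeks (log2 fold change -2.07 ± 0.71 (SE), adjusted p = 0.0304), and without 2-week library 1 its log2 fold change was -0.74 and not called. Heat shock, chaperone and cold-inducible genes together gave 2 rises and 2 falls among 15, where 18.2% of all genes tested rose and 18.7% fell. Their median of 0.08 became -0.31 with library totals, where none rose and 5 fell. The falls were Cirbp and Rbm3, and none was left without 2-week library 1 or without 4-week library 1. Immediate-early genes gave 1 rise among 18, none with library totals or without 2-week library 2 or 3 or 4-week library 3 and 4 without 4-week library 1, and Nr4a1, one of them, was at 10.03, 6.32 and 36.9 CPM at 2 weeks and 4.82, 17.7 and 121 CPM at 4 weeks (log2 fold change 1.44 ± 0.94 (SE), adjusted p = 0.25). Library 3 held the highest value at 4 weeks.

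Among immune lists the called genes mostly rose. Of 20 macrophage and dendritic cell genes, 8 rose and 1 fell, where 18.2% of all genes tested rose and 18.7% fell. Their median was 0.57. The rises numbered 5 without 2-week library 2 or 3 or without 4-week library 2, and with library totals 5 rose and 2 fell. H2-Aa, a chain of the class II antigen-presenting complex, was at 21.7, 23.9 and 17.8 CPM at 2 weeks and 79.9, 82.98 and 76.2 CPM at 4 weeks (log2 fold change 1.92 ± 0.17 (SE), adjusted p = 1.59e-06). The 3 values of each age were close, and the ages did not overlap. Mrc1, the mannose receptor of resident macrophages, was the fall, at 11.9, 12.3 and 16.01 CPM at 2 weeks and 8.34, 11.5 and 7.83 CPM at 4 weeks (log2 fold change -0.54 ± 0.17 (SE), adjusted p = 0.0201), a call lost without 2-week library 3 or 4-week library 1 or 3. Pigr, the receptor that carries IgA across epithelia, was at 7.74, 6.86 and 11.5 CPM at 2 weeks and 159.9, 228 and 45.4 CPM at 4 weeks (log2 fold change 4.05 ± 0.43 (SE), adjusted p = 5.22e-06). Igha, the constant region of IgA heavy chains, held 1 count over the 2-week libraries and was at 1.17, 0.716 and 0.277 CPM at 4 weeks, a pooled ratio of 44.5 with a 95% counting interval of 7.4 to 1820. They were the only called members of a list of 9 lymphocyte, plasma cell and IgA transport genes, and 1 of them rose without 2-week library 3 or without 4-week library 1. Interferon response genes gave 6 rises and no fall among 21, with a median of 0.85, where 18.2% of all genes tested rose. The rises numbered 3 without 2-week library 1 and 4 without 4-week library 3, and 2 genes fell without 4-week library 2. With library totals 3 rose and 2 fell. Irf7, an interferon-induced transcription factor, was at 3.49, 6.41 and 6.49 CPM at 2 weeks and 14.7, 20.05 and 22.5 CPM at 4 weeks (log2 fold change 1.80 ± 0.33 (SE), adjusted p = 0.000519).

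Injury genes of the tubule were uneven between libraries. Of 19, 4 rose and 4 fell, where 18.2% of all genes tested rose and 18.7% fell. The median of 0.17 became -0.22 with library totals, where 4 rose and 7 fell. Spp1, which encodes osteopontin, was at 1329, 1462 and 974 CPM at 2 weeks and 2389, 6834 and 7062 CPM at 4 weeks (log2 fold change 2.11 ± 0.30 (SE), adjusted p = 6.25e-05). Havcr1, the injury marker KIM-1, was at 0.491, 0.316 and 0.331 CPM at 2 weeks and 1.31, 50.2 and 0.277 CPM at 4 weeks (log2 fold change 5.49 ± 1.27 (SE), adjusted p = 0.00321), and without 4-week library 2 its log2 fold change was 1.06 and not called. That gene was named after its values were seen. Lcn2, the acute-phase lipocalin, was at 8.61, 10.2 and 18.04 CPM at 2 weeks and 4.96, 96.99 and 3.53 CPM at 4 weeks and was not called (log2 fold change 1.51 ± 0.86 (SE), adjusted p = 0.185). Without 4-week library 2 its log2 fold change was -1.53, and 7 of the 19 genes fell; without 4-week library 1, 2 did. Among 13 complement and acute-phase genes, 5 rose and 1 fell, with a median of 0.90, and 4 rose and 3 fell with library totals. C3, the central complement protein, was at 18.8, 11.1 and 13.02 CPM at 2 weeks and 31.5, 370.0 and 104 CPM at 4 weeks (log2 fold change 3.56 ± 0.87 (SE), adjusted p = 0.00452). The complement rises numbered 3 without 2-week library 2 or 3 or 4-week library 2 or 3, and the falls 4 without 4-week library 2 and 2 without 4-week library 3.

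Markers of neighbouring tissues were low in part and moved in part. The summed level of 9 erythroid genes ranged from 204 to 321 CPM at 2 weeks and from 187 to 377 CPM at 4 weeks, with no member called. Liver genes summed to 244 to 862 CPM and then to 497 to 1020 CPM. Of these 13 genes 4 rose, beside 18.2% of all genes tested. Alb, the serum albumin gene, was at 0.491, 0.722 and 2.46 CPM at 2 weeks and 58.1, 151 and 126 CPM at 4 weeks (log2 fold change 6.48 ± 1.89 (SE), adjusted p = 0.0136). Fat genes summed to 84.5 to 192 CPM and then to 51.6 to 113 CPM. Of 8 tested 1 fell, beside 18.7% of all genes tested. Skeletal muscle genes summed to at most 4.21 CPM and adrenal genes to at most 8.23 CPM in any of the 6 libraries. The part of these tissues in the results above was not tested.

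Sex-biased genes differed between the libraries of one age. Of 20 male-biased kidney genes, 16 rose and none fell, with a median log2 fold change of 2.70. Without 4-week library 3, the one without Y-linked transcripts, 19 rose. Timd2, a ferritin receptor, was at 7.63, 4.33 and 9.38 CPM at 2 weeks and 53.7, 53.9 and 19.3 CPM at 4 weeks (log2 fold change 2.57 ± 0.37 (SE), adjusted p = 8.38e-05). Kap, the androgen-regulated kidney protein, was not called, at 7294, 5595 and 4155 CPM at 2 weeks and 9526, 5841 and 6088 CPM at 4 weeks (log2 fold change 0.33 ± 0.24 (SE), adjusted p = 0.305). Of 20 female-biased genes, 14 rose and none fell, with a median of 1.29, and 12 rose and 3 fell without 4-week library 3. Without 2-week library 3, 9 rose. Akr1c18, a steroid reductase on the female-biased list, had no count at 2 weeks and was at 10.2, 11.9 and 0.0693 CPM at 4 weeks, at least 147-fold higher, with the value in library 3 resting on 1 count. The 2 libraries with Y-linked transcripts thus held most of the transcript of this gene.

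The wild-type kidneys of the same ages gave the comparison of whether the step differed with genotype. In wild type 7138 genes were called (48.3%), of which 3468 rose (23.5%) and 3670 fell (24.8%). Called in both genotypes were 4638 genes, which is 85.1% of the knockout calls and 65.0% of the wild-type calls, and 4626 of them moved the same way. Pearson's r between the log2 fold changes of the steps was 0.82 across the 14774 genes, which are not independent replicates. For 64.6% of genes the absolute step was smaller in the knockout. The difference of the steps was itself tested as an interaction over all 18 libraries, and 26 genes (0.176%) were called, 15 of them higher in the knockout step (0.102%) and 11 lower (0.0745%). Differences of at least 2-fold were called for 0.0948% of genes in the higher and 0.0677% in the lower direction. At an unadjusted p under 0.05, 1441 genes passed. DESeq2 called 180 genes, the fit of the 12 libraries alone called 0, and leaving out 1 library gave from 1 to 233, so this count depends on the setting. Knockout 4-week library 3 and wild-type 2-week library 1 were at or near 0 for Y-linked genes, and the other libraries of the compared groups were not. The steps thus differ in this as well as in genotype, and its part in the interaction was not tested.

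Growth and matrix lists were set side by side in both genotypes. Cell cycle genes fell in 24 of 30 in the knockout and 26 of 30 in wild type, with a median of -1.35 in each, and no member was called in the interaction. Fibrillar matrix genes had a median of -1.27 in the knockout and -2.14 in wild type, where 26 fell, and the absolute step was smaller in the knockout for 26 of 30. The mean log2 CPM of the list at 4 weeks was 3.90, 5.50 and 4.92 in the knockout libraries and 3.70, 4.09 and 3.82 in wild type. Knockout library 1 thus lay within the wild-type range, and the highest was knockout library 2, which also held the highest values of several injury and acute-phase genes. Their part in the difference was not tested. The one matrix member called in the interaction was Eln: in wild type it was at 129.7, 102 and 132 CPM at 2 weeks and 18.6, 16.8 and 18.3 CPM at 4 weeks, a log2 fold change of -2.76 ± 0.16 (SE) against -1.15 ± 0.15 in the knockout, with a difference of 1.61 ± 0.22 (SE), adjusted p = 0.0108. The knockout values at 4 weeks stood above the wild-type values of that age, and this call held in 11 of 12 fits that each left out a library. Mesangial genes fell in 12 of 20 in either genotype, with medians of -0.85 in the knockout and -1.22 in wild type, and the absolute step was smaller in the knockout for 16 of 20.

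In podocytes the wild-type step gave 18 falls and no rise among 25 genes, with a median of -0.59, beside the 7 rises and 6 falls of the knockout. Of these genes, only Ptpro was called in the interaction, which was 1.18 ± 0.19 (SE), adjusted p = 0.0221. It was at 58.5, 55.7 and 48.4 CPM at 2 weeks and 33.3, 29.4 and 29.8 CPM at 4 weeks in wild type, so its step fell there and rose in the knockout. It kept its interaction call in 5 of the 12 leave-one-out fits, and with library totals its knockout step was -0.01.

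Male-biased genes had a median of 4.53 in wild type, where 20 of 20 rose, beside 2.70 in the knockout, and the absolute step was smaller in the knockout for 20 of 20. The mean log2 CPM of the list at 4 weeks was 7.20, 6.90 and 4.70 in the knockout and 8.27, 8.88 and 8.79 in wild type. Knockout library 3, without Y-linked transcripts, was far below the others, and libraries 1 and 2 were also below every wild-type library. Without library 3, 19 genes rose in the knockout. Cyp7b1, a steroid hydroxylase, Cndp2, a dipeptidase, and Hsd17b11 were called in the interaction. Cyp7b1 was at 5.73, 5.69 and 5.54 CPM at 2 weeks and 9.58, 14.4 and 3.88 CPM at 4 weeks in the knockout (log2 fold change 0.71 ± 0.34 (SE), adjusted p = 0.109) and at 6.57, 4.41 and 4.91 CPM at 2 weeks and 78.98, 156 and 148 CPM at 4 weeks in wild type, with an interaction of -3.89 ± 0.47 (SE), adjusted p = 0.00543. All wild-type values at 4 weeks lay above all knockout values of that age, those of knockout libraries 1 and 2 with Y-linked transcripts included. It was called in 12 of 12 leave-one-out fits, and without knockout 4-week library 3 the interaction was -3.51 with an adjusted p of 0.000794. Over all alternatives that p ran from 8.62e-13 with DESeq2 to 0.0508 with the 12 libraries alone. Cndp2 was at 141, 109 and 124 CPM at 2 weeks and 339, 296 and 182 CPM at 4 weeks in the knockout and at 138, 122 and 122 CPM at 2 weeks and 673, 975 and 1019.6 CPM at 4 weeks in wild type, with an interaction of -1.68 ± 0.27 (SE), adjusted p = 0.0221. In wild type, 10 of 20 female-biased genes rose and 6 fell, with a median of 1.08. In the knockout 14 rose and none fell, with a median of 1.29. The interaction called 2 of these female-biased genes, both with a higher knockout step.

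Lpl, the lipoprotein lipase that releases fatty acids from circulating triglycerides, rose in both genotypes and less in the knockout. Its knockout values were 147, 110.2 and 140.1 CPM at 2 weeks and 346, 253 and 182 CPM at 4 weeks (log2 fold change 0.97 ± 0.25 (SE), adjusted p = 0.00695), and its wild-type values 166, 161 and 110.1 CPM at 2 weeks and 909, 1659 and 1449 CPM at 4 weeks. The interaction was -2.23 ± 0.36 (SE), adjusted p = 0.0221, and the 4-week values of the genotypes did not overlap. Knockout 4-week library 3, without Y-linked transcripts, held the lowest knockout value of that age, and without that library the interaction was -2.02. Without wild-type 2-week library 1 it was -2.33. Spp1 rose in the knockout and was not called in wild type, where it was at 1211, 1209 and 987 CPM at 2 weeks and 1339, 983 and 1013 CPM at 4 weeks, a log2 fold change of -0.03 ± 0.29 (SE). Its interaction was 2.14 ± 0.41 (SE), adjusted p = 0.0444, and that p ran from 6.07e-05 with DESeq2 to 0.266 with the 12 libraries alone, with 0.114 without knockout 4-week library 3. Kynu fell in wild type, to 14.6, 2.90 and 3.18 CPM at 4 weeks, and its interaction was 3.10 ± 0.59 (SE), adjusted p = 0.0444. Among the 12 fits that each left out a library, the interaction call was kept in 6 for Lpl, in 5 for Cndp2, and in 2 each for Spp1 and Kynu. With the replicate number as a block, the adjusted interaction p was 0.0712 for Kynu, 0.076 for Spp1 and 0.0677 for Hsd17b11, so these calls were lost. With a block of the replicate number within each age, it was 0.0559 for Kynu, 0.0751 for Spp1, 0.0661 for Hsd17b11 and 0.0515 for Cndp2.

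Ugt1a2, a glucuronosyltransferase, gave the most positive interaction. It was at 425, 239 and 294 CPM at 2 weeks and 267, 348 and 2041 CPM at 4 weeks in the knockout, where the step was not called (log2 fold change 1.47 ± 0.64 (SE), adjusted p = 0.0838), and at 872, 494 and 364 CPM at 2 weeks and 25.9, 6.49 and 4.996 CPM at 4 weeks in wild type, where it fell. The interaction was 6.98 ± 1.00 (SE), adjusted p = 0.0121, and 5.46 without knockout 4-week library 3, which held the highest value. That library was at or near 0 for Y-linked genes, as was wild-type 2-week library 1, the highest of its group. Because the Ugt1a genes share their later exons, reads may have been split between them. Its interaction was called in 9 of the 12 leave-one-out fits.

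**Figure D4:**
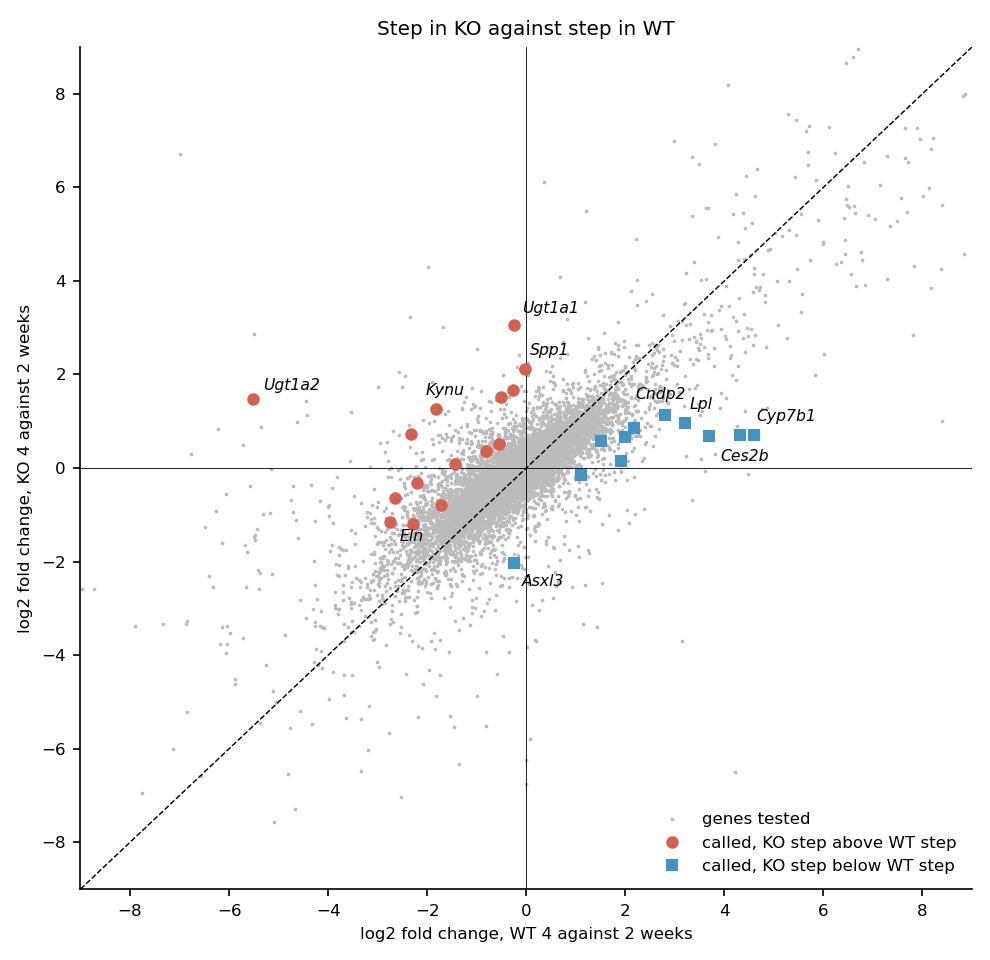
Log2 fold change from 2 to 4 weeks in the knockout (vertical axis) against wild type (horizontal axis) for 14774 genes, 21 of which lie outside the axes of 9 in either direction. The dashed line marks equal steps; red circles are the 15 genes with a higher and blue squares the 11 with a lower knockout step in the interaction test.

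Values at the neighbouring stage and against wild type share samples with the step described here and are set beside it as values alone. From 1 to 2 weeks in the knockout, the log2 fold change was -2.36 for Mest, -0.36 for Ccnb2, 0.93 for Slc22a12 and 0.85 for Ephx2, beside -2.26, -1.95, 2.19 and 2.32 from 2 to 4 weeks. Y-linked genes summed to at most 0.131 CPM in the knockout 1-week libraries and to 128 to 186 CPM in the 2-week ones. Sex and age thus cannot be told apart in the values from 1 to 2 weeks. At 4 weeks, knockout minus wild type was 1.87 for Eln, -3.79 for Cyp7b1, -2.36 for Lpl and 2.29 for Spp1 (log2).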

How the data were processed

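The members and gene lists were chosen with earlier results of these data known. Kidney RNA was captured as mRNA, per the labels' protocols. Per the submitters' processing notes, the tools were fastp, Bowtie2, HISAT2 2.1.0, StringTie 1.3.1 and RSEM. Neither the genome build nor the strand setting is given in the sources used here. The authors deposited expected counts, which are estimated and need not be whole, and FPKM values for 22063 genes in 18 libraries, per the file headers. Shared reads of near-identical genes are thus divided by an estimate.

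Here the expected counts were rounded, filtered with filterByExpr by group (14774 genes kept) and scaled by TMM. All 18 libraries entered 1 fit of 6 group means in edgeR 4.0.16 (R 4.3.3), with 12 residual degrees of freedom, so that the small groups share a spread. The step from 2 to 4 weeks in the knockout, that in wild type, and their difference (the interaction) were tested 2-sided by quasi-likelihood F tests with Benjamini-Hochberg adjustment over all genes tested. Each SE from these fits is the size of the log2 fold change divided by the square root of the F statistic. It is not a standard error fitted by the model, least of all for genes near 0 in 1 group. Calls needed an adjusted p under 0.05, "rose" and "fell" are used of called genes alone, and a second rule also asked for a log2 fold change of 1 or more in size. The fit was first run on simulated counts in which far fewer genes changed than were called here, as many up as down. That run therefore cannot judge the choice of scaling. The deposited FPKM values served for levels and, as log2(FPKM + 1) and log2(FPKM + 0.1), for limma 3.58.1 as an alternative.

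Named genes are the 12 steepest rises and falls with a mean of at least 5 CPM and no overlap between ages (provisional names left out), up to 4 members of each list by p of the step and up to 2 by p of the interaction, up to 8 called interactions in each direction, and the 5 highest FPKM values. Some genes that the rule names are not reported here. Genes outside it are marked as named after their values were seen, or are listed as members that went against their list. Intervals and floors (3 counts over the group) cover counting error only. Replicate numbers were checked for pairing and did not pair the ages. The other alternatives were DESeq2 1.42.0, relative log expression scaling, library totals, no filter, the libraries of the comparison alone, a replicate block, the mitochondrial genome left out, and each library left out.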

Additional observations from a re-analysis of the deposited data

Results flagged for a closer look

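The genes below were set apart because the step from 2 to 4 weeks differed between the knockout and the wild type in a test of the difference itself. Each value is the knockout log2 fold change minus the wild-type one. The adjusted p is that of edgeR's quasi-likelihood test, and the SE was derived from its F statistic. Lower steps in the knockout were found for Cyp7b1 (-3.89), Lpl (-2.23) and Cndp2 (-1.68), whose libraries are described in the report. They were also found for Ces2b, a carboxylesterase, at -3.62 ± 0.61 (SE), adjusted p = 0.0241, and for Ldc1, a leucine decarboxylase, at -3.01 ± 0.56 (SE), adjusted p = 0.0439. Ces2b was at 1.31, 1.49 and 1.47 CPM at 2 weeks and 2.69, 1.51 and 2.70 CPM at 4 weeks in the knockout and at 0.829, 1.75 and 1.54 CPM at 2 weeks and 11.3, 41.1 and 31.2 CPM at 4 weeks in wild type, where all 4-week values lay above all others. Chst11, a chondroitin sulphotransferase, was at -1.76 ± 0.33 (SE), adjusted p = 0.0444, and Slc9a8, a sodium and proton exchanger, was at -1.34 ± 0.23 (SE), adjusted p = 0.0278. Asxl3, a chromatin protein, was at -1.80 ± 0.26 (SE), adjusted p = 0.0121: it fell in the knockout (-2.03 ± 0.19) and was not called in wild type (-0.24 ± 0.17).

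Higher steps in the knockout were found for Ugt1a2 (6.98), Kynu (3.10) and Spp1 (2.14), given in the report. Ugt1a1, a bilirubin glucuronosyltransferase of the same locus as Ugt1a2, was at 3.30 ± 0.58 (SE), adjusted p = 0.0278. The glutathione transferase genes Gsta5 and Gsta2, which are close copies whose reads may be split, were at 3.05 ± 0.50 (SE), adjusted p = 0.0238 and 2.01 ± 0.35 (SE), adjusted p = 0.0278. Aldh1a2, which makes retinoic acid, was at 2.01 ± 0.38 (SE), adjusted p = 0.0442, with 4.75, 12.5 and 9.70 CPM in the knockout at 4 weeks and 2.13, 2.63 and 1.82 CPM in wild type. Hacl1, an enzyme of peroxisomal alpha oxidation, was at 1.93 ± 0.36 (SE), adjusted p = 0.0442. Among these higher steps, knockout 4-week library 3, without Y-linked transcripts, was the highest of its group for every gene but Aldh1a2. Wild-type 2-week library 1, also at or near 0 for Y-linked genes, was the highest of its group for every gene but Kynu. Among the lower steps, knockout 4-week library 3 was the lowest of its group for Cyp7b1, Lpl, Cndp2, Chst11 and Asxl3, and not for Ces2b, Ldc1 and Slc9a8. All wild-type 4-week libraries held Y-linked transcripts. The labels give no sex, and its part in these differences was not tested. Of the 16 flagged genes, 1 kept its call in all 12 fits that each left out a library, and 6 kept it in 2 of 12. The calls of Ldc1, Chst11, Slc9a8, Hacl1, Aldh1a2, Kynu and Spp1 were lost with the replicate number as a block (adjusted p from 0.0644 to 0.076). With a block within each age that of Aldh1a2 was kept, the other 6 were lost, and so were those of Ces2b, Cndp2 and Gsta5 (0.0515 each).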

How the results depend on the processing

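The count of 5447 genes changed in the knockout step ran from 4172 to 5113 when 1 of its 6 libraries was left out. It was 5828 with DESeq2, 5419 with relative log expression scaling, 5197 with no filter, 5429 without the mitochondrial genome and 5890 without both 2-week libraries numbered 1, an alternative added after the data were seen. Fitting its 6 libraries alone, with fewer residual degrees of freedom, gave 3275 genes, 1654 up and 1621 down, and the cause of this drop was not tested. Library totals gave 1054 rises and 6569 falls, log2(FPKM + 0.1) in limma 1037 and 6177, and log2(FPKM + 1) in limma 1024 and 5967; none of these 3 settings used TMM. The wild-type step, at 7138 genes in the main fit, ran from 6002 to 7046 with 1 library left out. It gave 5994 when its own 6 libraries were fitted alone. The interaction called 26 genes, 180 with DESeq2, 0 with its 12 libraries alone, 4 without both 2-week libraries numbered 1, and from 1 (without wild-type 4-week library 2) to 233 (without knockout 4-week library 1) with 1 library left out; the cause was not tested.

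Replicate numbers shared by the knockout ages did not pair the libraries (correlations of deviations 0.02, -0.06 and -0.06). With the number as a block 2815 genes rose and 2785 fell, with a block within each age 2865 and 2793, and with a block in the 6 libraries alone 1270 and 1171 (2441 in all). The interaction called 18 genes with the block, among them 17 of the 26, and 34 with the block within each age, among them 14 of the 26. Apart from these fits, deviations from the group means of knockout and wild-type 2-week libraries of the same number had correlations of 0.68, 0.31 and 0.46. Wild-type library 2 was closer to knockout library 3, at 0.35, so the numbers paired these libraries only in part.

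Over 133 named genes and 2381 alternatives of the knockout step, 2222 kept their side of the threshold, 144 lost the call and 13 gained one. Direction was compared only where a gene was called in the main fit or the alternative. The alternatives that reversed by that rule were Lcn2 without 4-week library 2 (-1.53, with up to 2.05 without the others) and Ptpro with library totals (-0.01). For the 26 interaction genes, 267 of 598 alternatives lost the call. Some counts of 0 to 2 genes in a list changed by 1 to 3 with the library left out. Depth limits genes with few counts, such as Igha and Slc7a11.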

Other observations

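Of the 4638 genes called in both genotypes, 12 moved in opposite directions: C1qtnf1, Acot3, Sema3g, Sdc2, Kynu, Zfp385b, Ptpro, Osbpl5, Frmpd3, Synpo, Ugt1a6a and Gm3776. They were named after their values were seen, and C1qtnf1, Kynu and Ptpro were also called in the interaction. Among them, 3 were podocyte list members: Ptpro, Sema3g, a secreted semaphorin, and Synpo, an actin-binding protein of the foot process. Synpo was at 92.5, 91.8 and 78.2 CPM at 2 weeks and 119, 106 and 128 CPM at 4 weeks in the knockout and at 115, 109 and 107 CPM at 2 weeks and 98.9, 75.9 and 89.8 CPM at 4 weeks in wild type. Sema3g was at 150.4, 111 and 108 CPM at 2 weeks and 178, 149 and 184 CPM at 4 weeks in the knockout and at 160.3, 108 and 140.0 CPM at 2 weeks and 107, 67.2 and 78.3 CPM at 4 weeks in wild type. Their interactions were 0.75 ± 0.17 (SE), adjusted p = 0.107 and 1.16 ± 0.24 (SE), adjusted p = 0.0735, so neither difference passed. The rise of Synpo was not called without 2-week library 3, and that of Sema3g was not called without 2-week library 2 or 3 or 4-week library 1 or 3.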
